A study of Homo sapiens with 23 samples.

Results

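The peak lists of H3K4me1 and H3K4me3, the mono- and trimethylated forms of lysine 4 of histone H3, were compared in the established lung cancer line NCI-H23, which came from a non-small cell tumour. They were chosen by target: the samples labelled H3K4me1 and H3K4me3, 2 replicate libraries each, 4 of the 23 samples of the series. Chromatin from formaldehyde-crosslinked cells was immunoprecipitated with a rabbit polyclonal antibody to H3K4me1 or a mouse monoclonal antibody to H3K4me3, sequenced, and peaks were called in each library. The 4 lists held 389699 of the 2889028 peaks of all 22 lists. The treatment protocol names the bromodomain inhibitor JQ1 and its solvent DMSO without saying which library received which, so each library is described by its target and replicate number only. The labels do not say whether the replicates were separate cultures, and the spread between them may be technical. Read numbers are not given in the files, so the depth of the libraries is unknown. With 2 libraries against 2, an exact two-sided permutation test cannot give a p below 0.33. Values are therefore given with their spread between libraries and without a test; peaks are not replicates, and none was made across them.

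Methylation of H3 lysine 4 is laid down by the COMPASS family of methyltransferases. The trimethylated form is known from promoters of active and poised genes, around the transcription start site. The monomethylated form is known from enhancers and from the shoulders of promoters, and it can be present at enhancers that carry no acetylation. H3K27ac and acetylation of the histone H4 tail are known from active promoters and enhancers, and BRD2 is a bromodomain protein that binds acetylated histone tails. H3K36me3 is laid down along transcribed gene bodies, H3K27me3 by Polycomb complexes, and H3K9me3 in heterochromatin. No gene annotation of the build of the lists, hg19, was used, so promoters and enhancers were not called, and regions are described by their marks and positions.

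H3K4me1 gave many narrow, crowded peaks and H3K4me3 few wide, isolated ones. The H3K4me1 lists held 141240 peaks in replicate 1 and 204854 in replicate 2, covering 95.8 and 194.8 Mb. The H3K4me3 lists held 21580 and 22025 peaks, covering 41.5 and 41.4 Mb. The H3K4me1 libraries thus differed from each other far more than the H3K4me3 libraries did, but their lists did not overlap those of H3K4me3 in length. The mean number of peaks was 173047 ± 44981.9 for H3K4me1 and 21802.5 ± 314.7 for H3K4me3 (SD, n = 2 each), a ratio of 7.94. At a −log10 q of at least 5, a stricter limit on the authors' values, the ratio was 4.33. This limit was met by 35.6% and 61.1% of the H3K4me1 peaks, against 93.3% and 92.6% of the H3K4me3 peaks.

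The median peak width was 440 bp and 562 bp for H3K4me1 replicates 1 and 2. For H3K4me3 it was 1775.5 bp and 1743 bp. Both H3K4me1 medians lay below both H3K4me3 medians, with a mean difference of -1258 bp. Peaks over 2 kb made up 4.30% and 9.95% of the H3K4me1 lists and 42.2% and 41.1% of the H3K4me3 lists. The widest single peaks nonetheless belonged to H3K4me1, with 39181 and 74341 bp, against 13851 and 13235 bp for H3K4me3. The difference in the median depended on which peaks were compared. Among the 20000 strongest peaks of each list by −log10 q, the median width was 1369 and 2393 bp for H3K4me1 and 1881 and 1876 bp for H3K4me3. One H3K4me1 library then lay below H3K4me3 and the other above it, and the mean difference was 2.50 bp.

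**Figure D1:**
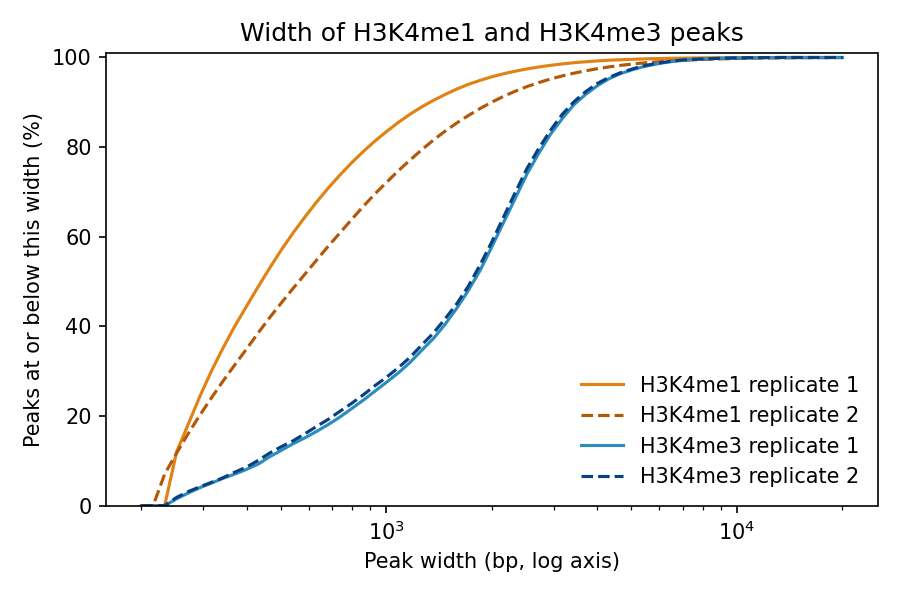
Cumulative distribution of peak width in the 4 lists: the horizontal axis is peak width in bp (log axis), the vertical axis the percent of peaks at or below it, and each line is 1 library. The H3K4me3 lines run together, whereas the H3K4me1 lines lie to the left and apart, with medians of 440 and 562 bp.

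Clustering of peaks was measured by the gap to the nearest peak of the same list. A neighbour lay within 1 kb for 60.9% and 64.7% of the H3K4me1 peaks, but for 12.6% and 12.7% of the H3K4me3 peaks. The difference of the means was 50.2 percentage points, against SDs of 2.67 and 0.0928 (n = 2 each). The median gap was 564 and 474 bp for H3K4me1 and 23321 and 23283 bp for H3K4me3. When peaks up to 3 kb apart were joined, clusters of at least 5 peaks held 40.1% and 45.9% of the H3K4me1 peaks and 0.672% and 0.754% of the H3K4me3 peaks. Conversely, 21.0% and 19.1% of the H3K4me1 peaks stood alone, against 81.1% and 81.0% of the H3K4me3 peaks. The longest H3K4me1 cluster spanned 323311 bp in replicate 1 and 324516 bp in replicate 2, and the longest H3K4me3 cluster 22299 and 22518 bp. Among the 20000 strongest peaks the share with a neighbour was 28.7% and 26.2% for H3K4me1 and 8.07% and 7.90% for H3K4me3, a difference of 19.5 points.

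Replicate lists of H3K4me3 were nearly interchangeable. Of the H3K4me3 peaks, 96.6% of replicate 1 and 95.0% of replicate 2 overlapped a peak of the other replicate by at least 1 bp. For H3K4me1 the shares were 92.9% of replicate 1 and 45.9% of replicate 2, so replicate 2 held most of replicate 1 and many peaks besides. The 20000 strongest H3K4me1 peaks were shared at 83.9% and 70.2%. Values below that rest on H3K4me1 are means over its 2 libraries unless the library is named, and the main ones are also given by library or as a range.

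Distances were measured from each H3K4me1 peak to the nearest H3K4me3 region, a region being H3K4me3 peaks of 1 list joined across gaps of up to 500 bp. This gave 20436 regions in replicate 1 and 20828 in replicate 2. Of all H3K4me1 peaks, the share more than 5 kb from the nearest edge was 58.9% and 58.7% for H3K4me1 replicate 1 with the 2 H3K4me3 lists, and 68.5% and 68.2% for replicate 2. The mean was 63.6% ± 6.77 (SD between H3K4me1 libraries, n = 2). The median distance was 9993.5 and 9800 bp for replicate 1 and 17257 and 16908 bp for replicate 2. The choice of H3K4me3 list moved these values little, the choice of H3K4me1 list more. Among the 20000 strongest H3K4me1 peaks of each list, set against the 20000 strongest H3K4me3 peaks, the share was 42.5%.

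Over the distance classes, 19.01% ± 3.54 of the H3K4me1 peaks overlapped H3K4me3 (SD between H3K4me1 libraries, n = 2). A further 4.91% ± 2.37 ended within 1 kb of an edge without touching it, and 12.5% ± 0.862 lay 1 to 5 kb away. The rest were divided into 20.8% ± 0.800 at 5 to 20 kb, 31.1% ± 3.74 at 20 to 100 kb and 11.6% ± 2.23 beyond 100 kb. The classes span unequal distances, so their shares do not compare the density of peaks. The overlapping class was larger in the shorter list, 21.5% of replicate 1 against 16.5% of replicate 2.

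**Figure D2:**
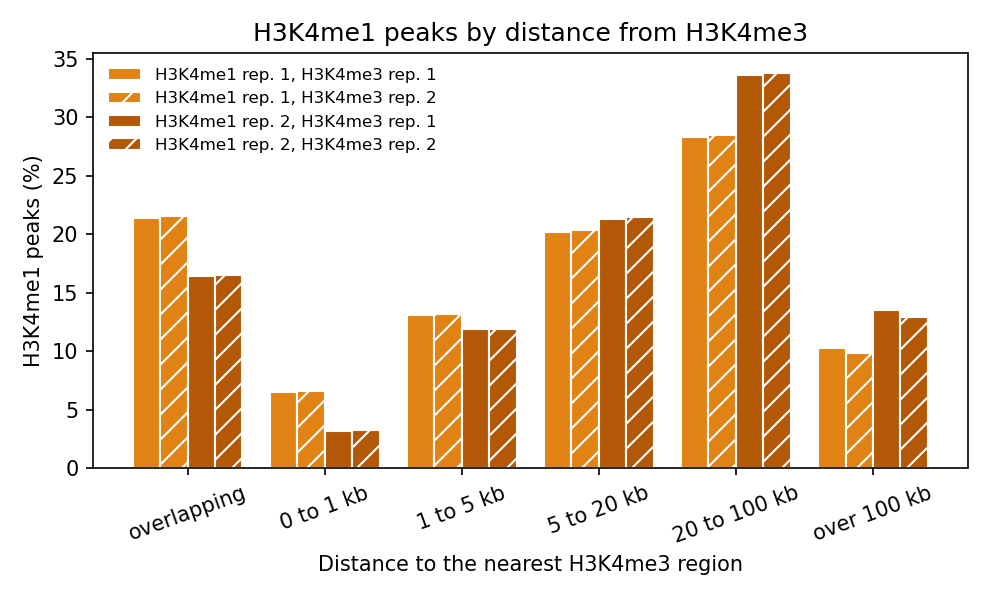
Percent of H3K4me1 peaks (vertical axis) in each class of distance to the nearest H3K4me3 region (horizontal axis), with 1 bar for each of the 4 combinations of libraries. In all 4 the tallest bar is 20 to 100 kb (28.4% to 33.8%) and the lowest 0 to 1 kb (3.19% to 6.61%). The classes span unequal distances, so bar height is not peak density.

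H3K4me1 peaks that overlapped H3K4me3 were wider and stronger than the others. Their median width was 663 and 661 bp in replicate 1 with the 2 H3K4me3 lists, against 357 to 411 bp in the other distance classes. In replicate 2 it was 1141 and 1139 bp against 437.5 to 512 bp. A −log10 q of at least 5 was reached by 61.9% and 61.6% of the overlapping peaks of replicate 1 and by 92.8% and 92.6% of those of replicate 2. They were also the peaks that recurred: 99.5% of those of replicate 1 were found in replicate 2, and 81.7% and 81.5% of those of replicate 2 in replicate 1. Of the peaks beyond 100 kb, replicate 1 shared 83.9% and 83.7% with replicate 2, and replicate 2 shared 34.3% and 34.1% with replicate 1. Overlap and strength therefore moved together: from the weakest to the strongest 20% of a list, the share overlapping H3K4me3 went from 7.98% to 43.4% in replicate 1 and from 2.42% to 46.1% in replicate 2. Among the other distance classes the median −log10 q was 3.05 to 3.73 in replicate 1, against 6.09 and 6.15 in the overlapping class. In replicate 2 it was 5.06 to 6.38, against 23.1 and 23.4.

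Where the marks met, H3K4me1 sat on the edges of H3K4me3 regions. Of the overlapping H3K4me1 peaks, 79.4% and 80.2% in replicate 1 and 90.1% and 90.5% in replicate 2 crossed an edge, and the rest lay wholly inside. In 71.0% to 72.8% of them the H3K4me1 summit was inside the region. Between 86.0% and 86.3% of those summits lay in the first or last 25% of its length, with a median of 175 to 198 bp to the edge. H3K4me1 peaks of replicates 1 and 2 covered up to 36.4% and 55.8% of the bases of H3K4me3 regions, but held only 15.5% and 33.8% of the H3K4me3 summits. In the other direction, 15.9% and 11.9% of the H3K4me1 bases lay under H3K4me3.

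The same layout was seen in the share of bases covered by peaks along each region. In the outermost 10% of the length at either end of H3K4me3 regions, H3K4me1 of replicate 1 covered 71.1% and 71.2% of the bases, and in the steps of 10% beside the middle 12.03% and 12.1%. Replicate 2 covered 90.7% and 91.0% at the ends and 25.4% and 25.6% in the middle. Outside the regions the coverage fell from 55.4% and 79.2% in the first 200 bp to 22.7% and 39.4% at 1 kb, 9.79% and 18.3% at 5 kb and 7.99% and 14.9% at 20 kb. H3K27ac ran the other way inside the regions. It covered 45.5% and 56.3% of the first 10% in replicates 1 and 2 and 82.7% and 85.4% of the 10% before the middle. In the first 200 bp outside it covered 24.4% and 32.3%, and at 5 kb 10.9% and 10.6%.

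**Figure D3:**
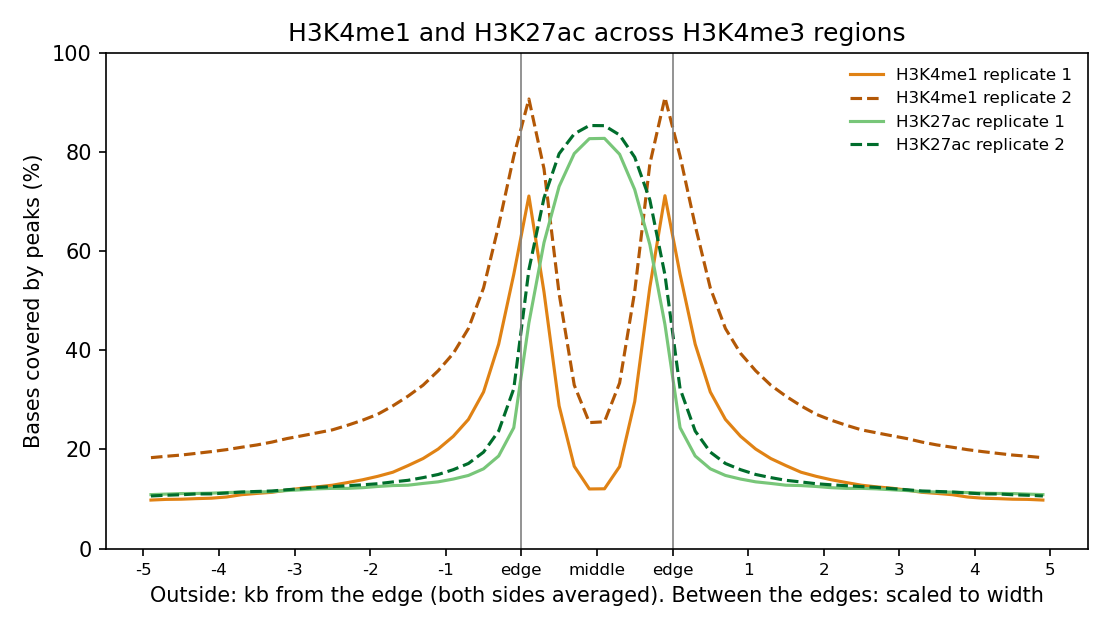
Percent of bases covered by peaks (vertical axis) across H3K4me3 regions, scaled to their width between the grey lines, and up to 5 kb outside (horizontal axis), with 1 line per H3K4me1 or H3K27ac library, averaged over both H3K4me3 lists. H3K4me1 peaks at the edges (71.1% and 90.7% in the first 10% of the length) and dips in the middle, where H3K27ac is highest.

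The central dip depended on the width of the H3K4me3 region. In regions of 2 to 3 kb the middle 20% of the length was covered by H3K4me1 at 4.88% of its bases with replicate 1 and 13.1% with replicate 2, while the outer 20% at either end was covered at 66.3% and 88.95%. In regions under 500 bp there was no dip: the middle 20% was covered at 44.5% and 67.4%, the ends at 41.2% and 64.1%. H3K4me1 covered at least 90% of the length of 31.1% and 56.8% of these narrow regions, and no base of 47.5% and 27.6% of them. In regions of 5 kb or more the middle was again more often covered, at 22.4% and 34.8%. H3K27ac covered 41.3% of the middle 20% in the narrowest class, 90.1% at 2 to 3 kb and 93.6% at 5 kb or more, averaged over both libraries.

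The next question was whether H3K4me3 regions carry H3K4me1 on 1 or on both sides. A side counted as flanked when an H3K4me1 peak shared at least 1 bp with the 1 kb outside that edge. Most regions were flanked on both sides: 58.1% and 57.9% with H3K4me1 replicate 1, and 83.5% and 82.9% with replicate 2. The mean was 70.6%, with an SD of 0.302 between H3K4me3 libraries and of 17.8 between H3K4me1 libraries (n = 2 each). Flanking on 1 side was found for 25.6% of regions with replicate 1 and 10.2% with replicate 2 (mean 17.9%), and on neither side for 16.5% and 6.67% (mean 11.6%). In windows of the same size 50 kb farther out, both sides held H3K4me1 in 5.59% of cases and 1 side in 27%. With H3K4me1 replicates 1 and 2 taken separately, this background was 3.42% and 7.76% for both sides and 22.95% and 31.1% for 1 side. The share flanked on both sides was far above it with either list. The share flanked on 1 side was slightly above it with replicate 1 and well below it with replicate 2. The lower and the upper side were flanked alone about equally often, 2607 and 2633 regions in the combination of both replicates 1.

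How many sides were called depended on the H3K4me1 library more than on the H3K4me3 library. Of the regions flanked on both sides with replicate 1, 99.2% or 99.3% were also so with replicate 2. Of those flanked on 1 side with replicate 1, 79.6% and 79.0% had both sides with replicate 2. Of the unflanked ones, 38.2% and 39.3% remained unflanked. Flanking by strong H3K4me1 was rarer still: with the 20000 strongest peaks of each list, 16.9% of the H3K4me3 regions had both sides. With at least 50% of each window covered, 26.4% had both.

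Flanking increased with the width of the H3K4me3 region. With H3K4me1 replicate 1 both sides were flanked in 41.1% and 39.1% of regions under 500 bp, 51.5% and 51.8% at 1 to 2 kb, 67.8% and 69.3% at 2 to 3 kb and 86.9% and 87.0% at 5 kb or more. With replicate 2 the same classes gave 61.8% and 59.2%, 83.2% and 83.0%, 92.7% and 93.2%, and 97.9% and 98.1%. The class of 500 bp to 1 kb broke the order in replicate 1, at 37.1% and 36.2%. Regions flanked on both sides had a median width of 2011 to 2178 bp, those flanked on 1 side 1215 to 1749.5 bp, and unflanked ones 611 to 894 bp. The authors' median fold enrichment of H3K4me3, compared only within a list, was 72.9 in both-flanked and 20.3 in unflanked regions for the combination of both replicates 1. For both replicates 2 it was 78.2 and 10.2.

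**Figure D4:**
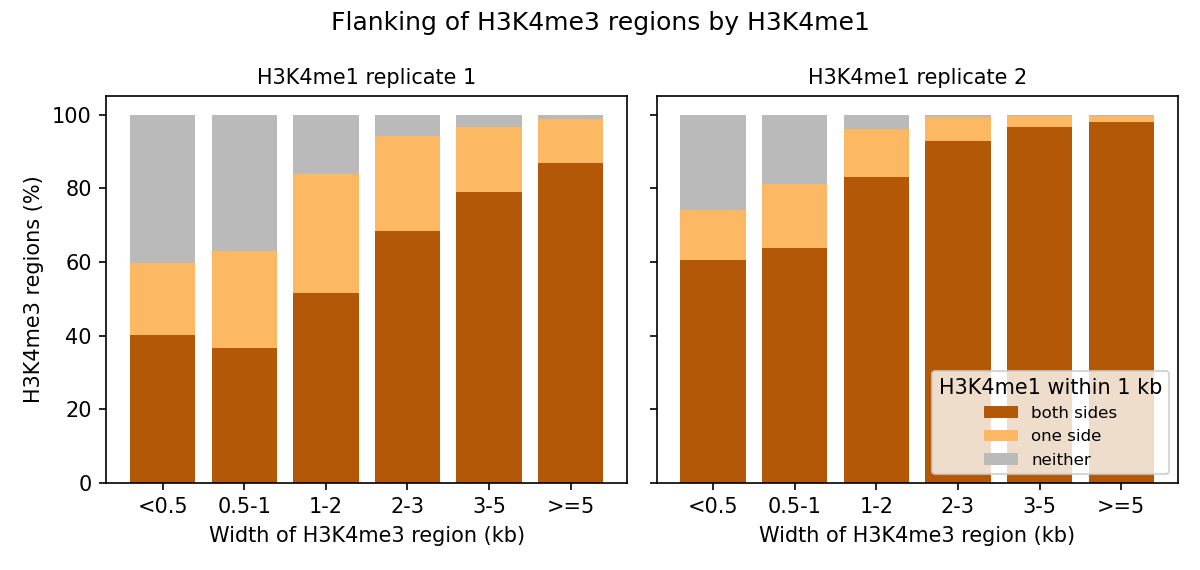
Stacked shares of H3K4me3 regions (vertical axis, percent, mean of both H3K4me3 lists) with H3K4me1 within 1 kb on both sides, 1 side or neither, by width of the region in kb (horizontal axis), 1 panel per H3K4me1 library. The unflanked share is largest in the narrow classes and nearly gone at 5 kb or more, and the one-sided share is larger with H3K4me1 replicate 1 in every class.

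Acetylation followed the flanking. Over all H3K4me3 regions, an H3K27ac peak overlapped 80.2%. Over the 8 combinations of H3K4me1, H3K4me3 and H3K27ac libraries, the share with H3K27ac was 84.6% to 93.6% of both-flanked regions, 57.0% to 80.7% of those flanked on 1 side and 23.9% to 47.1% of unflanked ones. The ranges of the 3 classes did not overlap. The means were 89.4% ± 0.123, 69.3% ± 0.793 and 34.9% ± 1.30 (SD between H3K4me3 libraries, n = 2). Both-flanked regions exceeded unflanked ones by 54.6 ± 1.18 percentage points (SD between H3K4me3 libraries, n = 2), in 8 of 8 combinations. The H3K4me1 libraries, which define the classes, differed more. The difference was 49.5 points with H3K4me1 replicate 1 and 59.6 with replicate 2, and ranged from 46.5 to 60.7 over the 8 combinations. In windows reaching 250 bp to either side of the H3K4me3 summit, which have equal width in every class, the shares were 88.5%, 68.1% and 34.1%.

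Width moved with both flanking and acetylation, so the classes were also compared within width. Under 500 bp, H3K27ac was present at 68.7% of both-flanked, 26.7% of one-sided and 11.4% of unflanked regions. At 500 bp to 1 kb the shares were 71.1%, 43.2% and 23.5%. At 1 to 2 kb they were 85.7%, 76.7% and 66.0%, and at 2 to 3 kb 97.2%, 93.9% and 86.3%. The order of the class means was thus the same in each of these widths. The gap between the means of both-flanked and unflanked regions was widest under 500 bp. Over the combinations of libraries, the ranges of these 2 classes did not overlap in any of these widths. The one-sided range overlapped the unflanked one up to 1 kb and the both-flanked one at 1 to 3 kb. Under 500 bp it was 14.3% to 41.5%, against 8.93% to 15.0% for unflanked regions. At 1 to 2 kb it was 70.8% to 81.5%, against 80.7% to 90.3% for both-flanked regions. Above 3 kb the unflanked class was too small in some combinations (10 to 103 regions at 3 to 5 kb) to be described further.

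The acetylated forms of the H4 tail gave the same order. H4K5acK8ac, the doubly acetylated tail, overlapped 87.0% of all H3K4me3 regions, and 93.9%, 80.6% and 48.4% of those flanked on both, 1 and neither side. H4K5ac overlapped 85.1% of all regions, and 93.5%, 77.4% and 38.0% of the classes. H4K12ac was found at 82.6% of all regions, and at 91.4%, 73.9% and 34.3%. H4K8ac was lower, with 67.5% of all regions and 77.6%, 53.7% and 21.97%. Its libraries differed widely, with an SD of 14.5 between H4K8ac libraries for both-flanked regions. In each of these 4 marks the both-flanked class exceeded the unflanked class in 8 of 8 combinations, by a mean of 45.6 to 57.1 percentage points. In the summit windows of equal width the difference was 45.6 points for H4K5acK8ac, 53.4 for H4K5ac and 50.7 for H4K12ac. There it was 41.2 points for H4K8ac (SD 15.6 between H4K8ac libraries) and 40.4 for BRD2, against 55.6 and 51.0 over whole regions. All 5 stayed above 0 in 8 of 8 combinations. BRD2 overlapped 59.5% of all H3K4me3 regions, and 68.9%, 46.9% and 17.9% of the classes.

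These shares differed between the H3K4me1 libraries. With H3K4me1 replicate 1 and replicate 2, H3K27ac was found at 42.6% and 27.1% of unflanked regions, H4K5acK8ac at 57.5% and 39.2%, and H4K5ac at 49.0% and 27.1%. H4K12ac was found at 45.5% and 23.1% of them, H4K8ac at 29.6% and 14.4%, and BRD2 at 22.97% and 12.8%. For both-flanked regions the 2 values were 92.1% and 86.7% for H3K27ac, 95.4% and 91.6% for H4K5ac and 72.1% and 65.6% for BRD2. For one-sided regions they were 77.3% and 61.3%, 85.1% and 69.7%, and 54.2% and 39.5%. With either library the order of the 3 classes was the same for all 6 targets.

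The 5 acetylation marks were also counted together, with libraries of the same replicate number. All 5 marks overlapped 83.8% of both-flanked H3K4me3 regions in replicate 1 and 60.5% in replicate 2. Among one-sided regions this was 62.2% and 28.4%, and among unflanked regions 25.1% and 6.32%. These 3 classes make up all H3K4me3 regions, over which the marks were not counted together. None of the 5 was found at 1.58% and 3.02% of the both-flanked, 6.45% and 14.8% of the one-sided and 33.1% and 51.4% of the unflanked regions. The few both-flanked regions without acetylation often carried the Polycomb mark: 41.5% and 57.9% of them overlapped H3K27me3, against 2.69% and 4.73% of those with all 5 marks. Of one-sided regions without acetylation, 41.4% and 27.8% overlapped H3K27me3. Of unflanked regions without acetylation, 18.6% and 20.3% overlapped H3K27me3 and 12% and 17.9% H3K9me3. Unflanked regions with all 5 marks overlapped H3K27me3 at 4.68% and 17.8%. The value of replicate 2 rests on few regions, 6.32% of 1425.

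Methylation marks of other residues divided the classes too. H3K36me3 overlapped 17.1% of all H3K4me3 regions, and 21.8% of both-flanked, 9.05% of one-sided and 1.83% of unflanked regions. These overlaps lay mostly away from the centre: in the summit windows the shares were 2.16%, 0.769% and 0.512%. H3K9me3 overlapped 3.87% of all regions and ran in the reverse order, with 1.58%, 7.14% and 15.7% of the classes. H3K27me3 overlapped 11.6% of all regions, and 9.24%, 15.8% and 17.3% of the classes. With H3K4me1 replicates 1 and 2, H3K9me3 was found at 12.1% and 19.2% of unflanked regions, and H3K27me3 at 18.6% and 16.0%. For H3K9me3 the both-flanked class was below the unflanked class by 14.1 points on average, and in 8 of 8 combinations. For H3K27me3 the one-sided class was below the unflanked class in 6 of 8 combinations and above it in 2 over whole regions. In the summit windows, where the H3K27me3 shares were 6.71%, 12.35% and 15.5%, the one-sided class was below the unflanked class by 1.56 to 4.72 points, in 8 of 8 combinations.

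One-sided regions allowed the side with H3K4me1 to be compared with the side without it in the same region. H3K36me3, looked for within 5 kb, lay on the H3K4me1 side of 27.8% of one-sided regions (range 23.2% to 32.4% over 8 combinations) and on the other side of 10.9% (8.01% to 14.0%). The ranges did not overlap. Where H3K36me3 was on 1 side only, it was the H3K4me1 side in 78.4% of cases (75.9% to 80.0%). H3K27ac within 1 kb was on the H3K4me1 side in 61.1% of such cases (53.4% to 67.7%). For H4K12ac this share was 55.0% (49.8% to 60.9%), for H4K8ac 55.3% (48.3% to 62.1%), for H4K5ac 52.7% (46.4% to 60.1%) and for BRD2 51.3% (47.5% to 56.7%). For H4K5acK8ac it was 45.1% (39.5% to 50.6%). For H4K5ac the direction depended on the H3K4me1 library, with 46.4% to 46.7% for replicate 1 and 57.7% to 60.1% for replicate 2. With replicate 2, H4K8ac was at 58.3% to 62.1% and H4K12ac at 57.7% to 60.9%, while with replicate 1 they were at 48.3% to 52.6% and 49.8% to 51.1%, on either side of an even split. H4K5acK8ac was at 39.5% to 42.7% with replicate 1 and 47.3% to 50.6% with replicate 2. BRD2 lay on either side of an even split with both libraries. H3K27me3 and H3K9me3 within 5 kb lay more often on the side without H3K4me1, with shares of 41.4% (39.6% to 43.0%) and 36.7% (35.4% to 39.7%).

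Because the class of a region varied with the library, regions with a class fixed in all 4 combinations were also examined. Among 19009 regions formed by 1 region from each H3K4me3 list, outside chromosomes 8, Y and M, 10664 (56.1%) were flanked on both sides in all 4. Flanking on the same single side was found in all 4 for 754 (3.97%), and on neither side for 1018 (5.36%). The remaining 6573 (34.6%) changed class between combinations. H3K27ac was present in both of its lists at 91.0%, 71.2% and 24.0% of the first 3 groups, and BRD2 at 64.9%, 44.3% and 7.76%. H3K9me3 was present in both lists at 0.722%, 5.17% and 15.5%. Among the 6573 regions that changed class, the shares in both lists were 66.6% for H3K27ac, 38.8% for BRD2 and 4.09% for H3K9me3. The share in both lists over all 19009 regions was not computed. The order seen with single libraries thus held in regions of fixed class. Their median widths were 2271, 1577 and 692.5 bp.

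The strongest H3K4me3 regions of each kind serve as examples and need not be typical of their class. Positions are 1-based in hg19, and strength is the rank of −log10 q within the H3K4me3 list. Flanked on both sides were chr3:9772195-9774972, chr7:1542164-1547463, chr19:1883615-1885940 and chr1:2321655-2324691. The authors' H3K4me3 fold enrichment at the first was 112.3 and 122.7 in replicates 1 and 2, and that of H3K4me1 6.88 and 11.9. H3K4me1 covered 42.9% and 45.9% of this region. H3K27ac covered 84.2% and 89.6%. The region chr19:1883615-1885940 had no BRD2 peak, whereas the other 3 had BRD2 in both lists, and none of the 4 carried H3K27me3 or H3K9me3.

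One-sided regions of comparable strength were chr22:22335971-22337833, chr13:48667882-48669533, chr6:30456668-30458942 and chr19:39934584-39937684. H3K4me1 lay on the side of lower coordinates in the first and second of these and on the side of higher coordinates in the other two. In each of the 4, H3K36me3 was found within 5 kb on that same side in both lists, and on the opposite side in neither list. All 5 acetylation marks and BRD2 had peaks there in both lists. These were chosen for strength and flanking, not for H3K36me3 or acetylation.

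The strongest regions without flanking H3K4me1 were chr19:58125176-58126746, chr19:37568403-37570602, chr14:36788399-36790561 and chr19:37741842-37743744. Their H3K4me3 fold enrichment was 81.7 to 102.2 in replicate 1 and 90.8 to 118.1 in replicate 2. H3K4me1 replicate 1 had no peak in any of them, and the nearest one was 3327 to 217114 bp away. Replicate 2 had a peak inside 3 of them, covering 15.0% to 21.1%, and none in the fourth. Despite the missing flanks, H3K27ac was called in both lists at all 4 and covered 53.4% to 62.9% of them in replicate 1 and 70.8% to 82.2% in replicate 2. BRD2 was also called in both lists at all 4. They were not typical of the 1018 unflanked regions, of which 24.0% had H3K27ac and 7.76% BRD2 in both lists. Their widths were 1571 to 2200 bp, against a median of 692.5 bp in that class. The 3 on chromosome 19 overlapped H3K9me3 in at least 1 list. Of all 1018 unflanked regions 6.19% lay on chromosome 19, against 7.24% of all 19009.

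The widest H3K4me3 regions were chr17:27042513-27056512, chr6:10402990-10416950, chr10:8090151-8104001 and chr1:8075141-8088620, with 14000, 13961, 13851 and 13480 bp. All were flanked on both sides by both H3K4me1 lists. H3K4me1 covered 34.8% to 47.3% of their length in replicate 1 and 44.0% to 71.9% in replicate 2. H3K27ac covered 94.3% to 100% in both. H3K36me3 covered between 33.6% and 66.8% of them.

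The H3K4me1 peaks were then divided by distance from H3K4me3 and compared for acetylation. H3K27ac overlapped 41.0% of all H3K4me1 peaks. It overlapped 74.0% ± 2.72 of those touching H3K4me3 (SD between H3K4me1 libraries, n = 2), with 67.7% to 79.8% over 8 combinations. Outside H3K4me3 the shares were 28.6% ± 9.13 at 0 to 1 kb, 35.2% ± 10.2 at 1 to 5 kb, 37.9% ± 10.1 at 5 to 20 kb, 34.7% ± 10.5 at 20 to 100 kb and 32.9% ± 10.5 beyond 100 kb. The classes outside H3K4me3 overlapped one another widely, since the H3K4me1 libraries differed, and all lay below the touching class. Within each combination, peaks at 0 to 1 kb carried H3K27ac less often than peaks over 5 kb away, by 4.68 to 8.36 percentage points in all 8. Peaks at 1 to 5 kb were higher than those over 5 kb away in 4 of 8, and the direction followed the H3K27ac library. With H3K27ac replicate 1 the mean shares were 36.7% and 33.8%, and with replicate 2 33.8% and 37.0%. The course beyond 5 kb also depended on this library. At 5 to 20 kb, 20 to 100 kb and beyond 100 kb the shares were 39.4%, 32.9% and 26.0% with replicate 1. With replicate 2 they were 36.3%, 36.5% and 39.8%.

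Peaks within 5 kb, the touching ones included, exceeded the distant ones by 19.2 ± 7.43 points for H3K27ac (SD between H3K4me1 libraries, n = 2; 13.6 to 25.1, 8 of 8 combinations). It was 9.18 points when at least 50% of the peak had to be covered by H3K27ac. With the 20000 strongest peaks of each list, those of H3K27ac included, it was 30.0 points. This difference was carried by the touching peaks, which exceeded the distant ones by 38.6 points. H3K4me3 regions as a whole exceeded distant H3K4me1 peaks by 44.8 ± 0.445 points (SD between H3K4me3 libraries, n = 2). The 2 H3K4me1 lists gave 37.3 and 52.2 points for it. When only the 20000 strongest peaks of each list were used, the H3K27ac lists included, this last difference was 21.2 points.

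**Figure D5:**
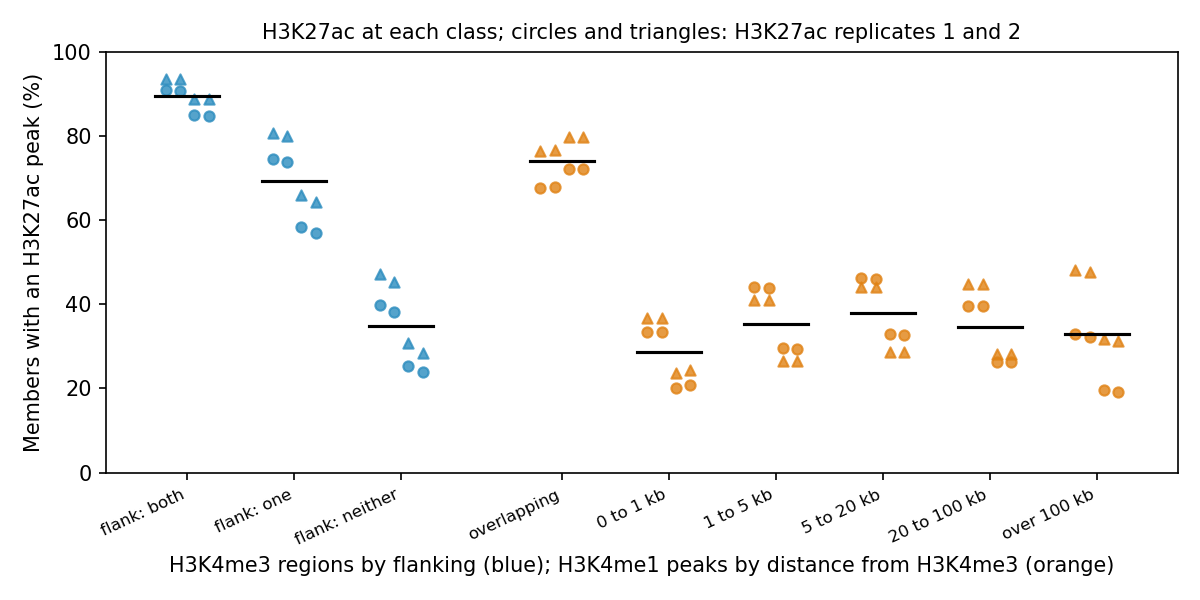
Percent of members with an H3K27ac peak (vertical axis) for H3K4me3 regions by flanking (blue) and H3K4me1 peaks by distance from H3K4me3 (orange); each point is 1 of 8 combinations of libraries and the black line their mean. The flanking classes separate (89.4%, 69.3% and 34.9%), and touching H3K4me1 peaks (74.0%) stand above all other distances.

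The H4 acetylation marks and BRD2 gave the same division between touching and all other H3K4me1 peaks. H4K5acK8ac overlapped 29.6% of all H3K4me1 peaks, 73.0% of touching ones and 18.4% to 22.3% in the other classes. H4K5ac overlapped 33.2% of all, 70.7% of touching ones and 24.3% to 27.5% elsewhere. H4K8ac overlapped 25.8% of all, 47.1% of touching ones and 15.9% to 25.3% elsewhere. H4K12ac was found at 24.1% of all, 62.5% of touching ones and 14.5% to 17.8% elsewhere. BRD2 was found at 7.98% of all H3K4me1 peaks, 27.9% of touching ones and 3.16% to 3.89% elsewhere. In summit windows of equal width it was found at 19.9% of touching ones and 2.60% to 3.14% elsewhere.

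H3K36me3 and H3K27me3 varied with distance among the non-touching peaks. H3K36me3 overlapped 26.6% of all H3K4me1 peaks. It overlapped 19.7% of touching ones, 25.8% at 0 to 1 kb, 37.7% at 1 to 5 kb, 35.2% at 5 to 20 kb, 27.01% at 20 to 100 kb and 9.72% beyond 100 kb. The class of 1 to 5 kb exceeded the peaks over 5 kb away in 8 of 8 combinations, by 11.1 points on average. H3K27me3 overlapped 2.81% of all H3K4me1 peaks and was lowest at 1 to 20 kb, with 0.559% and 0.656%. It reached 7.91% in touching peaks and 5.24% beyond 100 kb. H3K9me3 overlapped 2.36% of all H3K4me1 peaks and stayed between 1.79% and 3.82% in all classes.

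The share with H3K27ac spanned a wider range over the strength of the H3K4me1 peak than over distance among non-touching peaks. Among peaks over 5 kb from H3K4me3, the share with H3K27ac went from 25.5% in the weakest 20% of replicate 1 to 30.5%, 39.0%, 55.0% and 82.3% in the next steps of 20%. In replicate 2 it went from 12.6% to 15.5%, 21.6%, 37.6% and 75.1%. Width rose with strength, from a median of 279 to 1180 bp and from 277 to 1797 bp. In summit windows of equal width the weakest and strongest 20% were at 27.5% and 79.6% in replicate 1 and at 13.7% and 70.3% in replicate 2.

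Counted together, none of the 5 acetylation marks was found at 41.7% of the H3K4me1 peaks over 5 kb away in replicate 1 and 58.1% in replicate 2. All 5 were found at 8.97% and 4.62%. Among touching peaks the shares without any mark were 15.4% and 10.0%, and with all 5 marks 41.0% and 35.7%. Without any mark were 49.7% and 62.7% of peaks at 0 to 1 kb, and 41.7% and 60.9% at 1 to 5 kb. With all 5 marks the shares were 8.24% and 4.48%, and 8.66% and 4.57%. Distant peaks with all 5 marks were wider than those with none, with medians of 1106 against 321 bp in replicate 1 and 1991 against 382 bp in replicate 2.

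Distant regions called in both H3K4me1 lists numbered 51601. H3K27ac was present in both of its lists at 18288 of them (35.4%). All 5 acetylation marks were present in all of their lists at 4292 (8.32%), and 13474 (26.1%) had no acetylation peak in any list. BRD2 was called in both lists at 5.39% of the regions with H3K27ac, 21.5% of those with every mark and 0.0223% of those with none. In at least 1 list it was called at 19.5%, 53.4% and 2.58% of them, and at 9.98% of all. These groups also differed in median width, with 1682, 2376 and 736 bp, and in median percentile rank of H3K4me1 strength, with 77.7, 91.6 and 43.9. H3K36me3 in both lists overlapped 36.2%, 19.4% and 22.5% of the same groups, and H3K27me3 0.0711%, 0.0699% and 1.54%. H3K9me3 in both lists ran the other way, at 3.55%, 7.06% and 0.802%. Over all 51601 regions the shares in both lists were 2.03% for BRD2, 25.8% for H3K36me3, 0.911% for H3K27me3 and 1.91% for H3K9me3.

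The strongest distant H3K4me1 regions with H3K27ac were chr19:4364950-4381655, chr20:62310404-62320699, chr9:37935886-37962307 and chr20:48990217-48999394. They were 16706, 10296, 26422 and 9178 bp wide and 9413 to 63816 bp from the nearest H3K4me3 region. Replicate 2 called each as 1 peak, where replicate 1 called 8, 6, 5 and 4. The authors' H3K4me1 fold enrichment was 15.0 to 20.3 in replicate 1 and 22.3 to 30.5 in replicate 2. All 5 acetylation marks and BRD2 were called there in both lists. H3K36me3 covered 59.6% to 94.8% of the first 3 and none of the fourth. H3K9me3 was called in both lists at chr20:62310404-62320699 and in no list at the others.

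The strongest distant regions without acetylation ranked a little lower in their lists and were narrower. They were chr12:116559066-116560967, chr2:10035849-10038789, chr1:110104872-110109024 and chr11:116830902-116832582, with widths of 1902, 2941, 4153 and 1681 bp. Their H3K4me1 fold enrichment was 5.55 to 9.50 in replicate 1 and 10.3 to 16.3 in replicate 2. None had a peak of BRD2, H3K27me3 or H3K9me3, and H3K36me3 was found only at the one on chromosome 1.

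The longest H3K4me1 clusters away from H3K4me3 were chr10:79145384-79299099, chr12:116549002-116687239, chr17:75345954-75478110 and chr2:36701593-36800092. They spanned 153716, 138238, 132157 and 98500 bp. The cluster on chromosome 10 held 81 H3K4me1 peaks in replicate 1 and 53 in replicate 2, and H3K27ac covered 28.2% and 39.9% of it. The cluster on chromosome 12 held 85 in each list but was almost free of acetylation: H3K27ac covered 1.80% and 6.16%, and H4K5acK8ac, H4K8ac and H4K12ac had no peak there, although BRD2 was called in both lists. It contains the strongest unacetylated region named above. The cluster on chromosome 17 was covered by H3K27ac at 65.2% in replicate 1 and 21.3% in replicate 2, so the libraries disagreed there. On chromosome 2 the coverage was 50.6% and 54.1%, and H3K36me3 covered 93.9% and 92.6% of that cluster.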

How the data were processed

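The 4 lists of H3K4me1 and H3K4me3 peaks and those of 9 further targets were used as deposited, 1 list per library. Reads were aligned with BWA to hg19 and peaks called with MACS2, per the submitters' processing notes; versions, settings, control and filters are not given in the sources used here. Fold enrichment, a ratio over local background, was taken as deposited. Deposited p and q values are −log10 values. The deposited score was not used, and the last deposited column is the summit offset in bp. Ranks and folds were used within a list only, and 1 alternative applied a single limit of −log10 q to all lists. A deeper library yields a longer list, and depth is unknown and could not be corrected.

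Groups and replicate numbers came from the sample titles. Overlaps (at least 1 bp), distances and flanks were computed with Python 3.11.15, numpy 2.4.6 and pandas 2.3.3, and plots with matplotlib 3.10.9. H3K4me3 peaks up to 500 bp apart were joined. Values were computed for every combination of libraries and averaged. The SD is that between the 2 libraries of the mark named. The functions were tested on simulated data. Percentages over all members weight the lists by length.

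Regions named were the 4 widest or strongest of each kind called in both libraries, outside chromosomes 8, Y and M. The members, the comparisons and this rule were chosen with earlier results of these data known. A reference on another build, GRCh38.p14, was not used, so no gene or sequence is given. Alternatives covered peak strength, list length, gaps, windows, overlap, shared peaks, autosomes, the replicate block and leaving out each library.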

Additional observations from a re-analysis of the deposited data

How the results depend on the processing

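All alternatives were planned. Of 65 values under alternatives other than leaving out a library, 24 moved by less than 1 SD between libraries, 40 by more and 1 changed sign. Of 36 values without 1 library none changed sign. For flanking and the acetylation of H3K4me3 regions the SD was that between H3K4me3 libraries, otherwise that between H3K4me1 libraries. For flanking on both sides and on 1 side it was 0.302 and 0.0480, whereas between H3K4me1 libraries it was 17.8 and 10.9. Small changes there thus count as more than 1 SD. The causes were not tested, and with 2 libraries an SD can be very small. Since depth is unknown, differences in list length and among weak peaks are the least certain.

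The median width difference became 2.50 bp with the 20000 strongest peaks and -963.0 bp at a −log10 q of at least 5. At this limit the ratio of peak numbers was 4.33, the difference in peaks with a neighbour 39.2 points, the share over 5 kb 54.8%, flanking 55.7% on both sides and 22.3% on 1, and the H3K27ac differences 47.4 points (flanked on both sides minus unflanked) and 36.1 points (H3K4me3 minus distant H3K4me1). With the 20000 strongest peaks these were 19.5 points, 42.5%, 16.9%, 22.4%, 36.5 and 21.2 points, and the difference between H3K4me1 peaks within and over 5 kb was 30.0 points. Both limits were also applied to the H3K27ac lists, so the H3K27ac differences changed with the choice of acetylation peaks too.

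With at least 50% of the member covered by H3K27ac, the H3K27ac differences were 56.3 points (flanked on both sides minus unflanked), 43.5 (H3K4me3 minus distant H3K4me1) and 9.18 (H3K4me1 within minus over 5 kb); below they keep this order. With 50% of the flank window covered, flanking was 26.4% and 33.3%, and the first H3K27ac difference 40.3 points. Flank windows of 2 kb gave 71.9% and 17.0%, and of 500 bp 69.2%, 18.7% and 53.3 points for the first difference. Distance limits of 2 and 10 kb gave 72.0% and 54.5%, and neighbour gaps of 500 bp and 3 kb 39.2 and 60.96 points. Shared peaks gave 63.0%, 22.2% and 47.0 points for the first difference, and autosomes 71.3% and 17.6%. H3K4me3 peaks joined only when touching gave 18.0% on 1 side and 44.1 points between H3K4me3 and distant H3K4me1, and joined within 1 kb 17.9% on 1 side.

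Leaving out 1 library gave ratios of 6.48 to 9.40, width differences of -1319 to -1197 bp, neighbour differences of 48.3 to 52.0 points, 58.8% to 68.3% over 5 kb, 58.0% to 83.2% on both sides and 10.2% to 25.6% on 1. The H3K27ac differences were 49.5 to 59.6, 37.3 to 52.2 and 13.9 to 24.4 points. The extremes came from leaving out an H3K4me1 library in each case.

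The correlations of deviations between targets, for libraries of the same replicate number, were 0.0341, 0.0699 and 0.0477. What value paired samples would give is unknown, so these do not decide whether replicate numbers pair the samples. With the replicate block, using libraries of the same number only, flanking was 70.5% and 17.97%, the share over 5 kb 63.5%, and the H3K27ac differences 55.6, 45.4 and 19.6 points.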

Other observations

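Chromosomes differed in how the marks were combined. The mean share of H3K4me3 regions flanked on both sides, over 4 combinations of libraries, was highest on chromosome 17 (85.0%, range 76.9% to 93.1%) and lowest on chromosome 4 (50.4%, range 33.5% to 68.0%), followed by X (51.7%). Unflanked regions made up 26.9% on chromosome 4 and 23.4% on X, against 3.75% on chromosome 17. The number of H3K4me1 peaks per H3K4me3 region was 8.51 and 12.03 in replicates 1 and 2 on chromosome 2, but 4.34 and 5.42 on chromosome 19 and 3.96 and 6.70 on X. Chromosome 19 also had the fewest H3K4me1 peaks over 5 kb from H3K4me3, 38.0%, and the highest share of H3K4me3 regions overlapping H3K9me3, 10.8%.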
